A study of Mus musculus with 4 samples.

Results

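Hnf4a and 9 other genes of the nuclear receptor superfamily, Rara, Rarg, Rxra, Rxrb, Nr1h2, Ppard, Nr3c1, Esr1 and Thra, were read out of the expression table by gene symbol. All 10 were found among the 18598 genes listed, and all 10 passed the filter that left 14858 genes for testing, set at an average of 10 normalized counts over the libraries. The cells were LSK cells (lineage-negative, SCA-1+ and c-KIT+), the bone marrow fraction that holds the hematopoietic stem and early progenitor cells of C57BL/6 mice of about 3 months. Bptf, whose product BPTF is a subunit of the chromatin remodeler NURF, had been deleted in the Bptf cKO mice (Bptf f/f;Mx1-cre) and not in the Bptf f/f controls, and all mice had received pIpC, a double-stranded RNA that induces interferon and with it the Mx1 promoter. The Mx1 promoter that drove cre responds to interferon and is not particular to blood cells. The controls carried no cre, so that deletion and presence of cre cannot be told apart. Cells were sorted 10 days after cre induction, and each of the 2 libraries per genotype came from 5 pooled mice.

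Nuclear receptors are transcription factors that bind DNA through paired zinc modules and carry a pocket for a small lipophilic ligand. Many pair with a retinoid X receptor and sit on short repeated sequence elements, where a bound ligand exchanges corepressors for coactivators. HNF4A is an orphan member that works as a homodimer and is best known as a regulator of hepatocyte, gut and kidney tubule genes. In blood-forming cells, retinoic acid receptors are known for roles in stem cell maintenance and granulocyte differentiation, liver X receptors for control of cholesterol efflux, and the glucocorticoid receptor for stress responses.

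The libraries held 14091054 to 30134742 reads on listed genes, and 3.36% to 3.40% of them fell on the 10 highest genes. Bptf, counted over the whole gene although only exon 2 was removed, stood at 5520 and 5850 normalized counts in Bptf f/f and at 3398 and 3320 in Bptf cKO libraries. Its log2 fold change was -0.76 (SE 0.090), with an adjusted p of 0.0439 in limma, which ran from 0.0647 to 0.316 with 1 library left out. Of the 8 LSK markers, all 8 were detected. Kit, the receptor the cells were sorted on, differed by -0.010 on the log2 scale and Ly6a, which encodes SCA-1, by 0.091, and neither passed the test. Among all 8, 7 lay below 0 and the median was -0.72. limma, edgeR and DESeq2 each called 1 other marker lower (0.37%, 0.303% and 3.3% of all tested genes). Both libraries numbered 2 stood apart from those numbered 1. Xist, which female cells express from the inactive X chromosome, was at 15675 and 11843 normalized counts in them against 0.775 and 3.25. Ddx3y, a gene of the Y chromosome, was at 456 and 769 in the libraries numbered 2 against 1837 and 1835. The pools thus differed by number in their mix of female and male cells. The part of this mix in the results was not tested. Pou5f1 was at 582 and 738 in the libraries numbered 2 against 0 and 0. Erythroid markers moved with genotype, and their 9 genes summed to 2664 and 2032 normalized counts in Bptf f/f and to 492 and 587 in Bptf cKO libraries. Epor, the erythropoietin receptor, was the 1 erythroid marker that limma called, and fell by 1.96 on the log2 scale (adjusted p = 0.0443, and 0.0847 to 0.299 with 1 library left out). edgeR called 0 of the erythroid markers. The part of these markers in the results on nuclear receptors was not tested.

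Hnf4a was the member with the largest difference. It stood at 1167 and 1132 normalized counts in the Bptf f/f libraries and at 550 and 289 in the Bptf cKO libraries, from 1505, 817, 846 and 205 reads. The groups did not overlap, the controls lay close together, and the second Bptf cKO library was the lower of its pair. Mean values were 1149 ± 24.2 in Bptf f/f and 420 ± 184 in Bptf cKO (SD, n = 2 each), 36.5% of the control level or 2.74-fold lower. On the log2 scale, with 1 added to each normalized count, the difference was -1.52 (SE 0.31, 95% interval -2.30 to -0.75), the 330th lowest of the 14858 tested genes. In limma, fitted over all tested genes with Benjamini-Hochberg adjustment, the unadjusted p was 0.00363 and the adjusted p 0.113, so Hnf4a missed the threshold of 0.05. In edgeR's quasi-likelihood test on the recovered reads the adjusted p was 0.134. In DESeq2 on the same reads Hnf4a passed, with a log2 fold change of -1.44 (SE 0.32) and an adjusted p of 2.89e-04. Whether Hnf4a counts as changed therefore depended on the tool, and within limma and edgeR on the terms of the fit. In bulk cells, fewer cells of a type that expresses the gene and less RNA per cell cannot be told apart.

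Hnf4a varied more between the 2 Bptf cKO libraries than between the 2 controls. The part of that spread in the split between tools was not tested. Between libraries of the same number, Hnf4a differed by -1.08 on the log2 scale for number 1 and by -1.97 for number 2. The log2 difference between the 2 Bptf cKO libraries was -0.92, and 2.31% of the 10815 genes that averaged 100 normalized counts or more had a larger one. The log2 difference between the 2 control libraries was -0.043, and 87% of those genes had a larger one. With any single library left out, DESeq2 still called Hnf4a lower, with log2 fold changes between -1.99 (without Bptf cKO replicate 1) and -1.06 (without Bptf cKO replicate 2) and adjusted p between 4.55e-07 and 0.0164. With 2 libraries against 2, exact permutation of the labels, two-sided, can give no gene a p under 0.333.

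Hnf4a lies on chr2:163506808-163572910 (GRCm38, GENCODE vM21), plus strand. An antisense gene, Hnf4aos, overlaps its body without sharing exonic bases. RefSeq gives 2 start sites, about which the deposited values say nothing since reads were counted over the whole gene, and use of each start was not analysed here. The bases upstream of each start (from 250 to 51 before it, GRCm38.p6, plus strand) are shown. They lie ahead of the starts of the member whose level differed most. Capitals mark matches to the HNF1 half-site GTTAAT, which reads ATTAAC on the other strand:
Hnf4a start 1, chr2:163506607-163506806: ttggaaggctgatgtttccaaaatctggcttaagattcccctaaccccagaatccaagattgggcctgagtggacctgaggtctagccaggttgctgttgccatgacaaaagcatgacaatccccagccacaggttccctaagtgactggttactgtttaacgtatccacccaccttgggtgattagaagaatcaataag
Hnf4a start 2, chr2:163546905-163547104: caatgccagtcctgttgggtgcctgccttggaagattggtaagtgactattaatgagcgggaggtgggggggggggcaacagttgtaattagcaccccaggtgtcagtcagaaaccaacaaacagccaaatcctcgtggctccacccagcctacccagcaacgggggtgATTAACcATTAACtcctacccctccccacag
The HNF1 half-site was found in 1 of 16 windows of the members, that of the second start, with 2 matches. It occurred in 6.43% of 32851 RefSeq windows of 250 bases upstream, read on both strands. Windows were given for 8 of the 10 members. The half-site shared by many nuclear receptors, AGGTCA, was found in 2 of the 16 windows, those of Rarg and Rxra, and in 14% of all windows. A match is a run of letters and not evidence of binding.

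The listed genes on either side of Hnf4a did not follow it. Fitm2, 34179 bp to the left, stood at 190 and 262 normalized counts in Bptf f/f and at 224 and 268 in Bptf cKO libraries, and the groups overlapped (log2 fold change 0.14, limma adjusted p = 0.844). Ttpal, 29404 bp to the right, stood at 915 and 834 against 1178 and 1019, higher in both Bptf cKO libraries without passing the test (log2 fold change 0.33, limma adjusted p = 0.320).

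**Figure D1:**
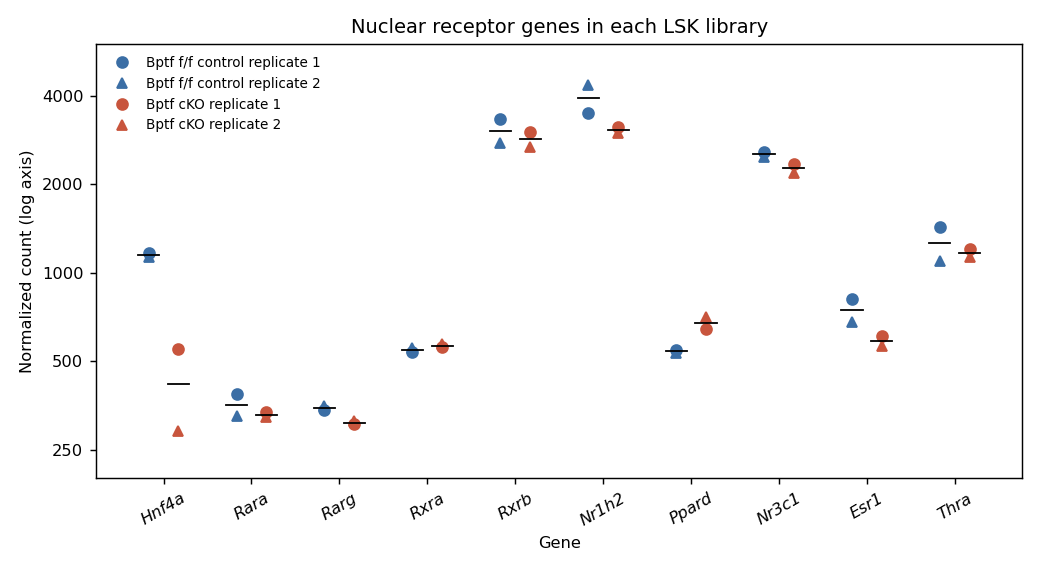
Normalized count (log axis) of each of the 10 nuclear receptor genes in each of the 4 LSK libraries, with Bptf f/f in blue and Bptf cKO in red, circles for replicate 1, triangles for replicate 2 and a bar at the mean of each genotype. Hnf4a shows the widest gap between genotypes, 1167 and 1132 against 550 and 289, and the widest gap between the 2 Bptf cKO libraries, while the genotypes overlap for Rara, Rxrb and Thra.

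Across the 10 receptors, limma called 0 genes, with 2 at an unadjusted p under 0.05 (Hnf4a and Nr1h2). edgeR called 0, with 2 at an unadjusted p under 0.05, and DESeq2 called 1, Hnf4a, as lower. Over all tested genes limma called 0.37% lower and 0.37% higher, edgeR 0.303% and 0.33%, and DESeq2 3.3% and 2.14%. At an unadjusted p under 0.05, limma gave 8.96% lower and 6.79% higher, a split of 1331 to 1009 genes that turned to 1093 and 1326 when the libraries were recentred on their medians. Both Bptf cKO libraries lay below both controls for 5 receptors (Hnf4a, Nr1h2, Nr3c1, Esr1 and Rarg), where 23.8% of all tested genes did so. Both lay above for 2 (Ppard and Rxra), where 23.2% of all tested genes did so. The median log2 fold change of the 10 was -0.13, beside 0.0010 over all tested genes.

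The retinoic acid receptors bind all-trans retinoic acid and act as partners of RXR. Rara, which encodes RARα, stood at 386 and 324 normalized counts in Bptf f/f and at 335 and 322 in Bptf cKO libraries. The genotypes overlapped, and the log2 difference was -0.11 (95% interval -0.53 to 0.31, limma adjusted p = 0.823). Rarg, which encodes RARγ, stood at 341 and 351 against 306 and 312. Both Bptf cKO libraries were lower, by a log2 difference of -0.16 (95% interval -0.54 to 0.22, limma adjusted p = 0.675). Neither interval left room for a loss of the size seen in the Hnf4a means. Rara lies on chr11:98927818-98974942 and Rarg on chr15:102234938-102257517. The gene 2994 bp to the left of Rarg, Itgb7, an integrin subunit, stood at 914 and 696 against 1628 and 2101. It rose in DESeq2 (adjusted p = 8.82e-06) and missed the threshold in limma (log2 fold change 1.21, adjusted p = 0.0751). The DESeq2 call was lost without Bptf cKO replicate 2 (adjusted p = 0.0568). Itgb7 was looked at for its place beside Rarg.

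The retinoid X receptors serve as common partners for most of the other members. Rxra, which encodes RXRα, stood at 539 and 556 normalized counts in Bptf f/f and at 559 and 571 in Bptf cKO libraries, a log2 difference of 0.047 (95% interval -0.27 to 0.36, limma adjusted p = 0.910). Rxrb, which encodes RXRβ, stood at 3331 and 2761 against 3011 and 2679, a log2 difference of -0.095 (95% interval -0.43 to 0.24, limma adjusted p = 0.800). The 2 Bptf cKO libraries lay just above the controls for Rxra, and the genotypes overlapped for Rxrb. Per kilobase of transcript, Rxrb was 11.5 and 9.28 times the level of Rxra in the controls and 10.1 and 8.75 times in Bptf cKO libraries. Rxra lies on chr2:27676440-27762957, the same chromosome as Hnf4a, and Rxrb on chr17:34031812-34038399.

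Nr1h2 encodes LXRβ, which senses oxidised cholesterol and turns on genes for cholesterol efflux and fatty acid synthesis. It was the second member by unadjusted p. It stood at 3493 and 4364 normalized counts in Bptf f/f and at 3142 and 2998 in Bptf cKO libraries. Both Bptf cKO libraries were lower, and the nearest libraries of the 2 genotypes lay closer together than the 2 controls. The log2 difference was -0.35 (SE 0.13, 95% interval -0.68 to -0.012), with an unadjusted p of 0.0448 and adjusted p of 0.305 in limma and 0.285 in DESeq2. Between libraries of the same number it was -0.15 for number 1 and -0.54 for number 2. Nr1h2 lies on chr7:44549616-44553951.

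Ppard encodes PPARδ, a fatty acid sensor that drives fatty acid oxidation. It stood at 544 and 535 normalized counts in Bptf f/f and at 644 and 705 in Bptf cKO libraries, the widest difference among the members that were higher. The log2 difference was 0.32 (SE 0.13, 95% interval -0.0019 to 0.64), with an adjusted p of 0.319 in limma and 0.462 in DESeq2. Ppard lies on chr17:28232700-28301474, on the same chromosome as Rxrb.

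Of the steroid receptors, Nr3c1 encodes the glucocorticoid receptor and Esr1 estrogen receptor α. Nr3c1 stood at 2572 and 2481 normalized counts in Bptf f/f and at 2338 and 2188 in Bptf cKO libraries, a log2 difference of -0.16 (95% interval -0.40 to 0.082, limma adjusted p = 0.498). Esr1 stood at 811 and 681 against 610 and 562, a log2 difference of -0.34 (95% interval -0.71 to 0.024), with an adjusted p of 0.347 in limma and 0.459 in DESeq2. Both were lower in each Bptf cKO library than in either control, and neither passed the test. Nr3c1 lies on chr18:39410545-39519421 and Esr1 on chr10:4611593-5005614. Thra encodes thyroid hormone receptor α. It stood at 1428 and 1094 normalized counts against 1204 and 1133, with overlapping genotypes and a log2 difference of -0.097 (95% interval -0.49 to 0.30, limma adjusted p = 0.832). Thra lies on chr11:98740638-98769006, the chromosome of Rara, and shares 263 exonic bases with the antisense gene Nr1d1. The handling of strand in the counting is not given in the sources used here, so Thra and Nr1d1 counts are uncertain.

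**Figure D2:**
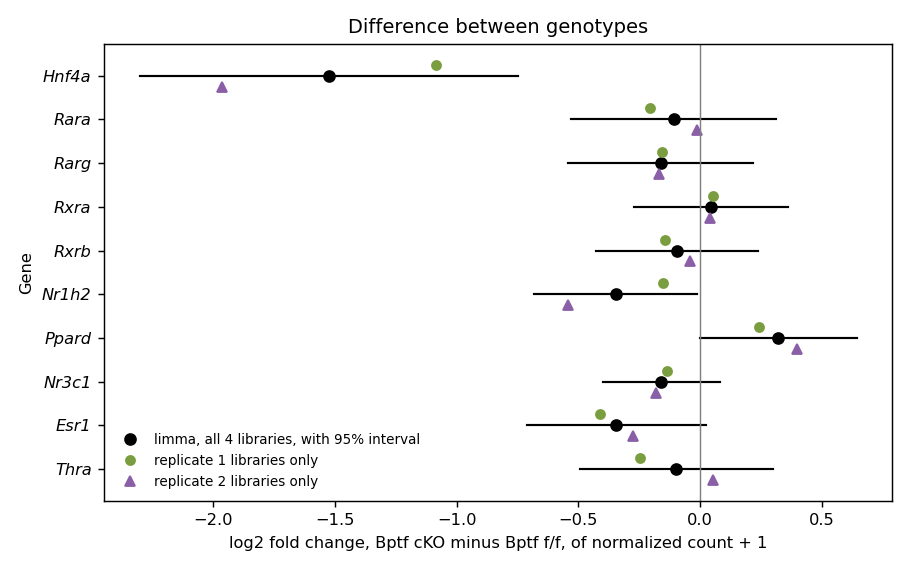
Log2 fold change of each of the 10 receptor genes, Bptf cKO minus Bptf f/f, of the normalized count with 1 added, where points are limma estimates over 2 libraries per genotype and bars are 95% intervals. The interval of Hnf4a runs from -2.30 to -0.75, that of Nr1h2 ends at -0.012, and the other 8 include 0.

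Levels can be set beside each other between genes only per length. In RPKM, here reads on a gene per kilobase of its longest transcript, scaled to the reads on all listed genes, the order in Bptf f/f was Nr1h2 at 101 ± 15.0, Rxrb at 59.8 ± 8.46, Thra at 26.5 ± 5.21, Nr3c1 at 20.2 ± 0.698 and Hnf4a at 13.6 ± 0.409 (mean ± SD, n = 2 each). Ppard at 7.46, Esr1 at 6.07, Rarg at 6.03, Rxra at 5.75 and Rara at 5.41 followed. Of neighbours in that order, Esr1 and Rarg overlapped between the control libraries, as did Rxra and Rara, and the other neighbours did not. In Bptf cKO, Hnf4a was at 6.44 and 3.33 RPKM, with a mean of 4.88 ± 2.19. Its place among the 10 was 5 in both controls and 6 and 10 in the Bptf cKO libraries. Among all nuclear receptor genes listed, its place was 5 and 6 in the controls and 11 and 18 in the Bptf cKO libraries. The 10 members summed to 253 and 251 RPKM in the controls and to 219 and 200 in Bptf cKO libraries. Of that sum, Hnf4a made up 5.48% and 5.29% in the controls and 2.94% and 1.66% in Bptf cKO libraries. Hnf4a thus stood in control LSK cells above both retinoic acid receptors and Rxra per length.

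**Figure D3:**
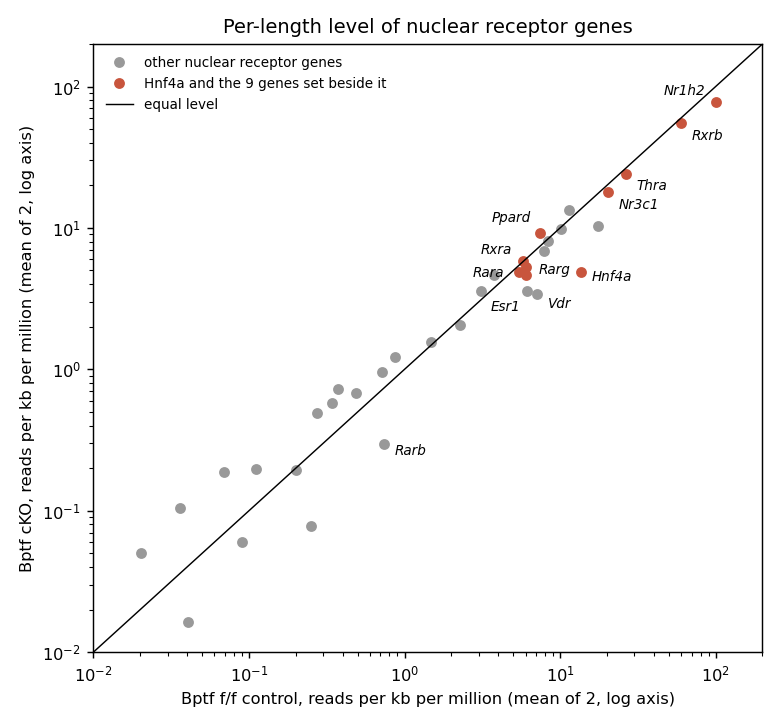
Level per length in RPKM (reads per kilobase of the longest transcript, scaled to library depth), mean of 2 Bptf f/f libraries (horizontal) against mean of 2 Bptf cKO libraries (vertical), both on log axes, for the nuclear receptor genes listed, with genes at 0 in either genotype left off. Hnf4a lies well under the line of equal level, at 13.6 against 4.88, and Nr1h2 and Rxrb are the highest in both genotypes.

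The genes whose values over the 4 libraries ran most like those of Hnf4a were found by root mean square distance of centred log2 values, over 10814 other genes that averaged 100 normalized counts or more. They were Zfp2 (distance 0.112), Rab6b (0.120), Pygm (0.125), Sdpr (0.130) and Msl3l2 (0.159). Pygm, the muscle form of glycogen phosphorylase, stood at 285 and 277 normalized counts in Bptf f/f and at 153 and 86.1 in Bptf cKO libraries. Like Hnf4a it was lower in the second Bptf cKO library than in the first, a likeness that follows from how it was picked. With 4 libraries, likeness of this kind rests on few points.

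Genes of HNF4A-rich tissues gave little to set beside Hnf4a. Of 20 known HNF4A target genes of liver and gut, 5 were listed and 2 passed the filter, and 15 were not analysed here. Apob and Mttp, which serve lipoprotein assembly, differed by -0.13 and 0.45 on the log2 scale, and 0 of the 2 passed in limma, edgeR or DESeq2. Of 12 hepatocyte and gut epithelium markers, Alb, Ttr, Tat, Fabp1 and Fabp2 were not analysed here and 4 passed the filter. The 7 listed markers summed to 1009 and 1202 normalized counts in Bptf f/f and to 1028 and 1120 in Bptf cKO libraries. Afp, a fetal liver protein, stood at 86 and 118 against 208 and 214 and rose in DESeq2 (log2 fold change 1.06, adjusted p = 0.0374) but not in limma (adjusted p = 0.143), and the DESeq2 call was lost with any 1 library left out. Cdh1, Epcam and Krt18, which mark epithelia, differed by 0.86, 0.043 and -0.27 on the log2 scale without passing.

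Of 39 other nuclear receptor genes, 26 were listed and 20 passed the filter, and 13 were not analysed here. limma called 0 of the 20, with 3 at an unadjusted p under 0.05. edgeR called 0, and DESeq2 called 1. Their median log2 fold change was 0.13. Vdr, the vitamin D receptor and another partner of RXR, stood at 545 and 661 normalized counts in Bptf f/f and at 280 and 312 in Bptf cKO libraries. It fell in DESeq2 (log2 fold change -1.03, adjusted p = 4.58e-04) and missed the threshold in limma (log2 fold change -1.02, adjusted p = 0.0794). With 1 library left out, DESeq2 kept that call only without Bptf f/f replicate 1. Rarb, the third retinoic acid receptor, stood at 40 and 50 against 18 and 18, from 51, 36, 28 and 13 reads (log2 difference -1.24, limma adjusted p = 0.239). Nr4a2, an orphan receptor of the immediate early type, differed by -0.61 on the log2 scale. It stood at 253 and 592 normalized counts in Bptf f/f and at 268 and 238 in Bptf cKO libraries, so that the second control alone was high, and the difference was 0.082 between the libraries numbered 1 and -1.31 between those numbered 2. The highest differences were 0.97 for Nr6a1, the germ cell nuclear factor, and 0.86 for Nr3c2, the mineralocorticoid receptor, and these did not pass either.

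Receptor function depends on corepressors and coactivators, and of 22 such coregulator genes all 22 were tested. limma and edgeR called 0, and limma gave 3 lower at an unadjusted p under 0.05. Ncoa5, a coregulator of estrogen receptors, fell in DESeq2 (log2 fold change -0.45, adjusted p = 0.0410, limma adjusted p = 0.143), a call lost with any 1 library left out. Ppargc1a, which encodes the coactivator PGC-1α, had the lowest value at -1.74 and Lcor stood at -0.28. Ppargc1a rested on 59, 59, 42 and 8 reads. It differed by -0.72 between libraries numbered 1 and by -2.75 between those numbered 2. Hr, Nrip1 and Crebbp were the highest at 0.42, 0.22 and 0.21, with Hr resting on 13, 7, 20 and 10 reads. The median of the coregulators was -0.023.

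For the retinoids, 20 genes of supply and clearance were looked up and 8 passed the filter, with 0 calls in limma, edgeR or DESeq2, 0 at an unadjusted p under 0.05 in limma and a median log2 difference of -0.13. Dhrs3, a retinaldehyde reductase, was the lowest at -1.15, followed by Aldh1a1, which makes retinoic acid, at -1.0, and Cyp26b1, which degrades it, at -0.66. Rdh10, Fabp5 and Adh5 were the highest at 0.24, 0.077 and 0.013. Of 14 retinoic acid receptor targets 7 were tested, with 0 calls in the same tools. In limma 1 was lower at an unadjusted p under 0.05. Their median log2 difference was -0.66, the value of Cyp26b1, which rested on 23, 11, 22 and 5 reads. That median depended on genes of low level. It was -0.38 with a pseudocount of 10, and -0.17 for the 5 targets left when the filter was raised to 50 normalized counts. Rarb, Dhrs3 and Tgm2 were the lowest at -1.24, -1.15 and -0.71, and Cebpe and Nrip1 the highest at 0.52 and 0.22. Dhrs3 stood at 705 and 249 normalized counts in Bptf f/f and at 224 and 158 in Bptf cKO libraries. Cebpe rested on 210, 22, 188 and 60 reads and stood at 0.093 in DESeq2. It differed by -0.41 between libraries numbered 1 and by 1.44 between those numbered 2. Rarb is shown because it is the textbook target of its own family. Its best known start holds a retinoic acid response element, 2 copies of GTTCA in the same direction with 6 bases between them, which was found on either strand in 22 of 32851 windows (0.067%), with the repeats and the bases between them in capitals (GRCm38.p6, minus strand):
Rarb, chr14:16575507-16575534: ggaaggGTTCACCGAAAGTTCActcgca

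Liver X receptor targets included the efflux genes that were lower in Bptf cKO. Of 13 targets 11 were tested, and in 8 of the 11 both Bptf cKO libraries lay below both controls, beside 23.8% of all tested genes. DESeq2 called 5 lower (3.3% of all tested genes), while limma and edgeR called 0, with 5 lower at an unadjusted p under 0.05 in limma. The median log2 difference was -0.35. Abca1, the transporter that loads cholesterol on apolipoprotein A-I, stood at 933 and 747 normalized counts in Bptf f/f and at 259 and 354 in Bptf cKO libraries, and fell in DESeq2 (log2 fold change -1.46, adjusted p = 1.83e-06, limma adjusted p = 0.0647). Abcg1, its partner in cholesterol efflux, stood at 2139 and 2342 against 1109 and 1353 (log2 difference -0.87, DESeq2 adjusted p = 6.31e-05, limma adjusted p = 0.0700). Scd2, a fatty acid desaturase, stood at 7859 and 9267 against 3766 and 4667 (log2 difference -1.03, DESeq2 adjusted p = 8.54e-07, limma adjusted p = 0.0630). These 3 genes serve cholesterol efflux and fatty acid desaturation.

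Apoe, which carries lipid out of cells, stood at 4778 and 3319 normalized counts in Bptf f/f and at 2064 and 2399 in Bptf cKO libraries (log2 difference -0.84, DESeq2 adjusted p = 0.00319, limma adjusted p = 0.144). Mylip, which marks the LDL receptor for degradation, stood at 659 and 529 against 370 and 340 (log2 difference -0.73, DESeq2 adjusted p = 0.0269, limma adjusted p = 0.141). The DESeq2 call of Mylip was lost with any 1 library left out. For all 5 genes the genotypes lay apart. Leaving out 1 library at a time, a check added after the data were seen, left 2 to 4 of the 5 calls in DESeq2. Without Bptf cKO replicate 1 Abca1 and Scd2 remained, and these 2 were called in each of the 4 fits. Of the other targets, Srebf1, Lpcat3 and Scd1 differed by -0.14, -0.20 and -0.35, and Fasn, fatty acid synthase, by 0.068, with overlapping genotypes. Pltp and Lpl were the highest at 1.10 and 0.57, from values that were high in the second Bptf cKO library only. Pltp stood at 3.88 and 4.16 against 1.95 and 38.1. The Abca1 promoter is shown because it holds the liver X receptor element, GGTTA and GGTCA with 5 bases between them, which was found on either strand in 15 of 32851 windows (0.0457%). It is given in the direction of transcription (GRCm38.p6, minus strand), where the element reads on the opposite strand, in capitals:
Abca1, chr4:53159916-53160015: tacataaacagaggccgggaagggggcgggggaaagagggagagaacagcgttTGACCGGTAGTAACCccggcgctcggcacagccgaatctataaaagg

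**Figure D4:**
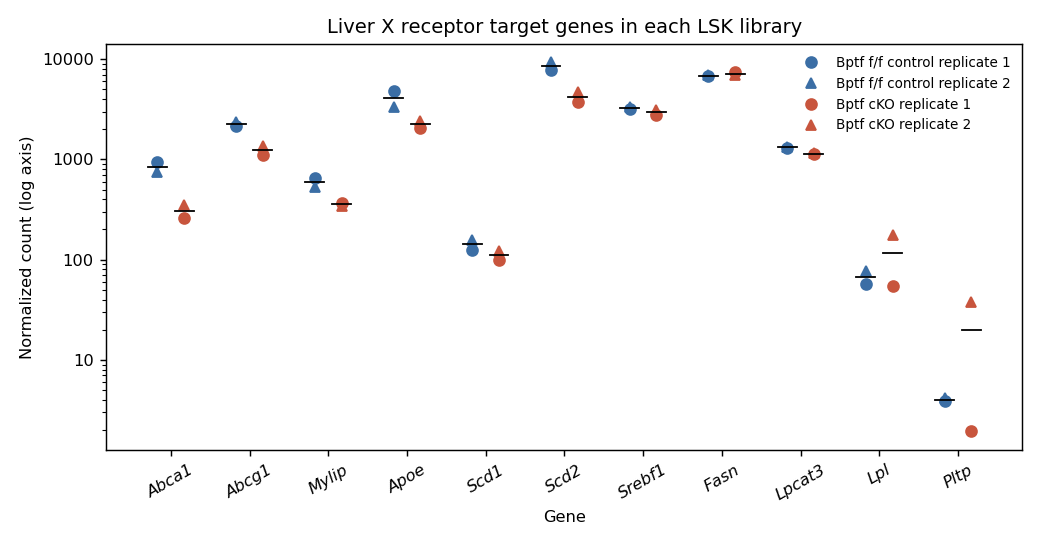
Normalized count (log axis) of the 11 tested liver X receptor target genes in each of the 4 LSK libraries, with Bptf f/f in blue and Bptf cKO in red, circles for replicate 1, triangles for replicate 2 and a bar at the mean of each genotype. Abca1, Abcg1, Mylip, Apoe and Scd2 lie lower in both Bptf cKO libraries, for example 259 and 354 against 933 and 747 for Abca1, while Fasn overlaps.

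Of 16 PPAR targets 15 were tested. DESeq2 called 1 higher (2.14% of all tested genes), and limma and edgeR 0. In limma 4 were higher at an unadjusted p under 0.05 (6.79% of all tested genes). Both Bptf cKO libraries lay above both controls for 7 of the 15 (23.2% of all tested genes) and below for 3 (23.8%). The median log2 difference was 0.25, and also 0.25 with a pseudocount of 10. It was 0.065 for the 11 targets left when the filter was raised to 50 normalized counts. Cpt1a, the step that brings fatty acids into mitochondria for oxidation, stood at 5548 and 5380 normalized counts in Bptf f/f and at 7487 and 7460 in Bptf cKO libraries, and rose in DESeq2 (log2 fold change 0.45, adjusted p = 0.00269, limma adjusted p = 0.100). The DESeq2 call of Cpt1a was lost with any 1 of the 4 libraries left out. Fabp4 and Pdk4 were among the highest at 3.17 and 0.79, both of low level, with Fabp4 at 4.65 and 0 against 7.80 and 50.8 normalized counts. Cd36, a fatty acid transporter, was the lowest at -1.06, and Acadm stood at -0.15.

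For the glucocorticoid receptor, 12 of 14 targets were tested, with 2 lower in DESeq2 (3.3% of all tested genes) and 0 in limma and edgeR. In limma 3 were lower at an unadjusted p under 0.05 (8.96% of all tested genes). Their median log2 difference was 0.014. Dusp1, a phosphatase that acts on MAP kinases and is also an immediate early gene, stood at 8370 and 16528 normalized counts in Bptf f/f and at 2496 and 2768 in Bptf cKO libraries (log2 difference -2.16, DESeq2 adjusted p = 1.98e-11, limma adjusted p = 0.0654). With 1 library left out, the DESeq2 call of Dusp1 was lost without either Bptf cKO library, and limma called it without Bptf f/f replicate 1 (adjusted p = 0.00668) or replicate 2 (0.0267). Fos, which responds to the same signals, ran alongside at 16269 and 37418 against 4335 and 4312 normalized counts, and for both genes the second control was far above the first. Tsc22d3, which encodes the glucocorticoid-induced leucine zipper, fell in DESeq2 (log2 difference -0.87, adjusted p = 0.0344, limma adjusted p = 0.217), and with 1 library left out kept that call only without Bptf cKO replicate 1. Per1 stood at -0.51, and Zbtb16, Ddit4 and Cdkn1c were the highest at 0.67, 0.37 and 0.32. All 9 chaperones and cofactors of the receptor were tested with 0 calls in limma, edgeR or DESeq2, 0 at an unadjusted p under 0.05 in limma and a median of -0.088. Hsd11b1, which regenerates active glucocorticoid, was the lowest at -0.55, then Dnajb1 at -0.47 and Fkbp4 at -0.16, and Fkbp5, Hspa8 and Stip1 were the highest at 0.20, 0.11 and 0.049.

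Of 12 estrogen receptor targets 10 were tested, with 1 higher in DESeq2 (2.14% of all tested genes) and 0 calls in limma and edgeR. In limma 1 was higher at an unadjusted p under 0.05 (6.79% of all tested genes). Their median log2 difference was -0.18. Ccnd1, which encodes cyclin D1, stood at 493 and 956 normalized counts in Bptf f/f and at 1825 and 2145 in Bptf cKO libraries and rose in DESeq2 (log2 difference 1.53, adjusted p = 2.33e-04, limma adjusted p = 0.120), a call lost without Bptf cKO replicate 2 (adjusted p = 0.0533), while limma called it without Bptf f/f replicate 2 (0.0295). Cxcl12, Ltf and Susd3 had the lowest values at -0.83, -0.43 and -0.32. Cxcl12 rested on 9, 13, 1 and 20 reads and stood at 0.19 in DESeq2. Ltf, a neutrophil granule protein, stood at 7264 and 728 normalized counts in the controls and at 2144 and 1352 in Bptf cKO libraries, and DESeq2 called it higher without Bptf f/f replicate 1 and lower without Bptf f/f replicate 2. Xbp1 and Gata3 followed Ccnd1 at 0.14 and -0.050. Of 9 thyroid hormone receptor targets 7 were tested, with 0 calls in limma, edgeR or DESeq2. In limma 1 was lower at an unadjusted p under 0.05 (8.96% of all tested genes), and the median was 0.32. Me1, malic enzyme, Thrb and Hr were the highest at 0.85, 0.43 and 0.42, and Mbp, Nrgn and Klf9 the lowest at -0.34, -0.26 and 0.28.

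**Figure D5:**
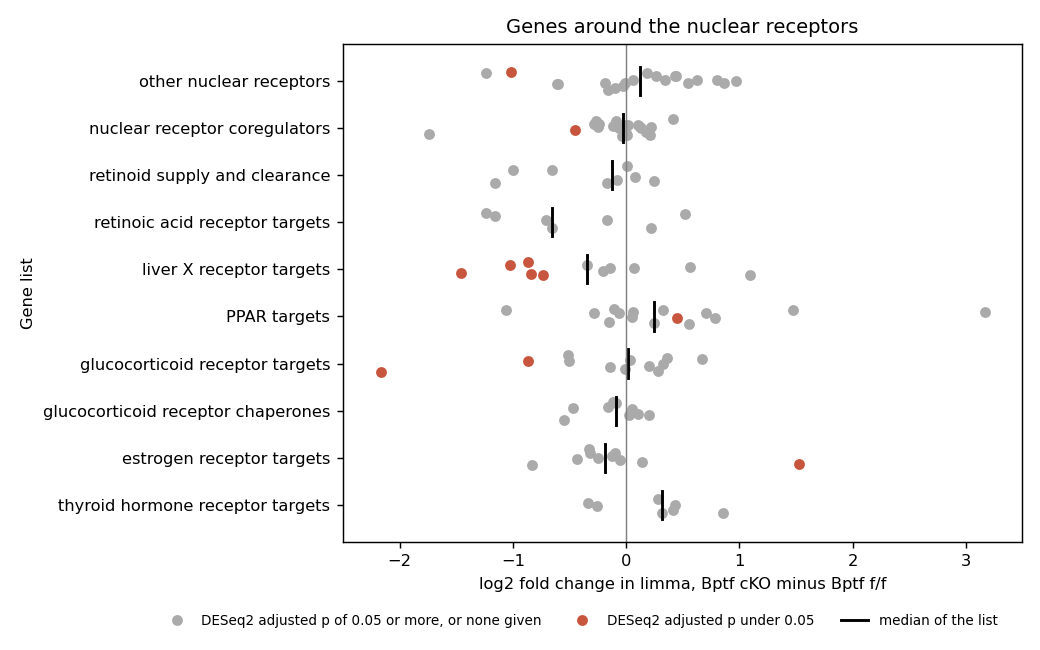
Log2 fold change in limma, Bptf cKO minus Bptf f/f, of each tested gene of 10 lists around the nuclear receptors, 1 row per list, with genes under an adjusted p of 0.05 in DESeq2 in red and the list's median as a black bar. The liver X receptor targets hold 5 red points, all on the lower side, and most of the other lists are spread around 0.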

How the data were processed

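RNA from LSK cells was sequenced in 4 libraries, 2 per genotype. Per the labels, the authors used HISAT2, featureCounts and DESeq2 on GRCm38 (mm10). Versions, gene annotation, strandedness and the treatment of reads with several matches are not given in the sources used here. The deposited signal values were gene counts that the authors had divided by a size factor per library; dividing each value by what 1 read is worth gave back whole reads for 100% of values (within 0.001 read), and the lowest gene listed had 11 reads over the 4 libraries. The deposited table also holds 5 columns of the authors' own comparison (a log2 fold change, its error, a test score, a p-value and an adjusted p-value) and the authors' mean of all libraries, none of which was used.

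Groups came from the labels. Normalized counts were tested by limma 3.58.1 (R 4.3.3) on log2(normalized count + 1) with a mean-variance trend and genotype as the only term, two-sided, for 14858 genes averaging at least 10, with Benjamini-Hochberg adjustment and a threshold of 0.05. Alternatives were DESeq2 1.42.0 and edgeR 4.0.16 (quasi-likelihood, TMM) on the recovered reads, pseudocounts of 0.5 and 10, no filter or a minimum of 50, recentring, quantile normalization, limma without trend, the replicate number as a block and each library left out. The limma, edgeR and DESeq2 fits were run on simulated data as a check of the code. There, variation beyond read sampling was set the same for every gene, with no effect of replicate number. That setting differs from these libraries, so the check cannot say which tool's calls hold here. Gene positions came from GENCODE vM21 and promoter windows from RefSeq (GRCm38.p6), which held 8 of the 10 receptors. Libraries of pooled mice were counted as replicates, so p-values measure the spread between 2 pools per genotype.

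The receptors, the gene lists (receptors, coregulators, targets, chaperones and cell type markers, from textbook knowledge) and the tests were chosen with earlier results of these data known. All 10 receptors were named. From the other lists, each limma call and the 3 lowest and 3 highest log2 fold changes were named. DESeq2 calls were added after their values were seen, as were Itgb7, Fos, Srebf1, Lpcat3, Scd1, Xist, Ddx3y and Pou5f1. The promoter sequences were picked in the same way. A few genes that the rule would name are not reported here.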

Additional observations from a re-analysis of the deposited data

How the results depend on the processing

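Of 200 member fold changes under 20 alternatives, 186 kept their direction and side of the threshold, 8 passed it where the limma test on all libraries had not, and 6 changed sign without passing. Without Bptf f/f replicate 1, the log2 differences of Rara, Rxrb and Thra turned to 0.017, 0.041 and 0.095 in limma and to 0.016, 0.043 and 0.095 in DESeq2, and over the libraries left out they ran from -0.23 to 0.017, from -0.23 to 0.041 and from -0.29 to 0.095. The cause was not tested. DESeq2 called 1 receptor (Hnf4a) and 1 of the other nuclear receptors (Vdr) lower. Over all tested genes it called 490 lower and 318 higher, where limma called 55 and 55. Limma without the trend called 0 and 2 of all tested genes, with 1224 lower and 812 higher at an unadjusted p under 0.05. Leaving out each library in turn (in DESeq2 a choice made after the data were seen), 0 to 1 of the 10 receptors and 0 to 3 of the other nuclear receptors (Vdr, Nr4a1 and Nr4a2 without Bptf f/f replicate 1 in DESeq2) were called lower, and 0 to 291 and 1 to 231 of all tested genes lower and higher. In limma 0 receptors were called in each of these fits, in which a lone library is taken to vary like the others.

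Same-numbered libraries share only a number in the labels. Their deviations from the genotype means correlated at 0.452 over 14858 genes and at 0.638 over the 10815 averaging 100 normalized counts or more. Libraries also split by number in Xist, in Ddx3y, in Pou5f1 and along the second principal component. That axis held 38.5% of the variance over all tested genes. Libraries numbered 1 stood on it at 35.6 and 33.8, and those numbered 2 at -46.2 and -23.1. By Xist and Ddx3y, the number marks at least a difference in the mix of female and male cells. With 2 pairs, what else it marks cannot be told from these values and was not tested. With the replicate number as a block, limma called 2 receptors lower, Hnf4a (adjusted p = 1.86e-04) and Nr1h2 (0.0431), and 1 other, Vdr (5.92e-04), with 1242 and 896 of all tested genes lower and higher. With the block, edgeR called 1 receptor, Hnf4a (2.09e-04), and 1 other, with 1229 and 891 of all genes. Calls were added in most gene lists. Both block fits called lower 7 of 8 erythroid markers, 5 of 8 LSK markers, 5 of 11 liver X receptor targets, 2 of 8 genes of retinoid supply (Dhrs3 and Aldh1a1), 2 of 7 retinoic acid receptor targets (Dhrs3 and Tgm2), 2 of 6 megakaryocyte markers, 2 of 6 B and T cell markers, 1 of 9 glucocorticoid receptor chaperones (Dnajb1) and 1 of 7 thyroid hormone receptor targets (Mbp). They called higher 3 of 15 PPAR targets (Angptl4, Cpt1a and Hadhb), 1 of 10 estrogen receptor targets (Ccnd1) and 1 of 4 hepatocyte and gut markers (Afp). Limma and edgeR with the block called 4 and 3 of 12 glucocorticoid receptor targets and 2 and 1 of 22 coregulators lower, and 4 and 2 of 10 granulocyte and monocyte markers higher with 1 lower in each. Quantile normalization in limma called 1 liver X receptor target, Scd2. Recentring the libraries moved the median of all genes by 0.0515 on the log2 scale and turned the unadjusted split of 1331 lower and 1009 higher into 1093 and 1326. The receptors at an unadjusted p under 0.05 in limma were then Hnf4a and Ppard. Nr1h2, at a recentred log2 difference of -0.30, was no longer among them. In limma without the trend, Hnf4a was the only receptor under that threshold. The lowest member count in a library was 205 reads, and some target genes, such as Pltp and Fabp4, had far fewer.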

Other observations

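Markers of other blood cells differed among the lineages. Of the 9 erythroid markers 8 were tested, and in 7 both Bptf cKO libraries lay below both controls (23.8% of all tested genes). limma called 1 of the 8 lower (0.37% of all tested genes), edgeR 0 (0.303%) and DESeq2 4, Epor, Car1, Klf1 and Hbb-bt (3.3%). The median log2 difference was -2.01. Alas2, the first step of heme synthesis, stood at -2.42, Car1, a carbonic anhydrase, at -2.25, Klf1, the erythroid Krüppel-like factor, at -2.08 and Hba-a1, Hbb-bs and Hbb-bt, which encode globins, at -1.02, -1.57 and -1.89. Of 6 megakaryocyte markers 0 passed in limma, with 1 at an unadjusted p under 0.05, and DESeq2 and edgeR called 0. Their median was -0.51, from Vwf, Gp1bb and Pf4 at -1.02, -0.93 and -0.81 to Ppbp, Gp9 and Itga2b at -0.20, -0.18 and 0.083.

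Granulocyte and monocyte markers summed to 59950 and 12232 normalized counts in Bptf f/f and to 54538 and 47269 in Bptf cKO libraries, so that the second control stood apart. limma, edgeR and DESeq2 called 0 of these 10 genes, with 2 higher at an unadjusted p under 0.05 in limma. Without Bptf f/f replicate 1, limma called 4 higher (Elane, Mpo, Ctsg and Ly6c2) and DESeq2 5, with a median log2 difference in limma of 1.29. Without Bptf f/f replicate 2, limma called Ctsg higher, DESeq2 called Ctsg higher and Itgam and Csf1r lower, and the median in limma was -1.18. Ctsg, Ly6c2 and Mpo were the highest at 2.86, 1.15 and 1.11, and Itgam, Csf1r and Ly6g the lowest at -1.22, -1.19 and -0.62. Of the B and T cell markers 6 of 10 were tested, with 0 calls in the same tools, 0 at an unadjusted p under 0.05 in limma and a median of -0.47. Il7r, Cd4 and Cd79b were the lowest at -1.12, -0.73 and -0.51, and Cd79a and Ighm were among the highest at -0.0059 and -0.44. Among the LSK markers, Procr and Slamf1, which mark stem cells, stood at -0.81 and -0.80, and Cd34 at -0.21. The median of the 8 LSK markers was -0.72.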
